A study of Mus musculus with 4 samples.

Results

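The immune cells of the dura mater on day 3 after photothrombotic injury (PTI) were compared with those of the control group, to describe which marrow-type and resident cells differed in share and which genes differed in the same direction in most classes of cells. All cells of the 2 dura mater libraries were taken if over 1000 but under 6000 genes were detected in them and mitochondrial genes made up 7% of their signal at most. These were 6237 of the 14586 cells that passed the same filter in the 4 libraries of the series, with 3569 cells from the control group (S3) and 2668 from the injured group (D3). Each group had 1 library, so every interval given here covers counting error only, and the spread between mice is not known for any difference.

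Both groups were adult C57BL/6J mice, and the cells of both were sorted for CD45, the pan-leukocyte surface marker encoded by *Ptprc*, before droplet sequencing with the 10× Chromium 3′ v3 kit. In PTI, white light is aimed through the skull after the dye Rose Bengal has been injected, and clots form in the lit vessels. The labels call the control CT and the injured group INJ, and the control was taken as the sham-operated S3 group of the study. The tissue was digested with enzymes, red cells were lysed and dead cells were gated out. The number of mice in each library is not given in the sources used here, and mouse, surgery, sort and library cannot be told apart.

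The dura mater is the outer membrane of the meninges and lies against the skull. It is known to hold resident border macrophages, mast cells and group 2 innate lymphoid cells (ILC2), and also neutrophils, monocytes and B cells of several stages, part of which reach it through channels from the marrow of the skull. B cell precursors rearrange their antigen receptor genes and carry the surrogate light chain, while neutrophils pass from a precursor that makes primary granule enzymes to an immature stage that makes secondary granule proteins and then to a mature stage that leaves the marrow.

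Cells were put into classes by 28 marker lists, at most 1 class per cell, and the classes are called "-like" for this reason. The libraries held 54749012 (S3) and 55887697 (D3) unique molecular identifiers (UMIs, each a counted RNA molecule), and the kept cells had a median of 9637 and 14264.5 UMIs and of 2697 and 3362.5 genes. The D3 cells were thus deeper, and the main shares are also given after every cell was thinned to 2000 UMIs, which left out 4 and 2 cells. *Ptprc* was at 482 and 516 UMIs per 1000000 UMIs of the kept cells (CPM). The markers of cells that the CD45 sort should remove were at 42.9 and 34.8 CPM in sum for endothelial cells and at 63.0 and 44.6 CPM for fibroblasts, and none of these markers was at 0. The 2 libraries shared 5 cell barcodes. No class could be given to 313 cells (8.77%) at S3 and 169 (6.33%) at D3. A further 309 and 192 cells were gated but lay within 0.05 of the cut of the score or of the cut of its lead over the next list.

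The markers were found where the gates place them. B precursor-like cells carried *Vpreb3*, a partner of the surrogate light chain, at 3031 CPM at S3 and 2840 at D3, against 305 and 42.6 CPM in the whole library. *Rag1*, which cuts DNA in receptor gene rearrangement, was at 223 and 183 CPM in these cells, and *Igll1*, a part of the surrogate light chain, was at 329 and 210 CPM. Granulocyte precursor-like cells carried *Elane*, neutrophil elastase, at 12232 and 8754 CPM and *Mpo*, myeloperoxidase, at 5815 and 4274 CPM. The markers named were thus present in the gated cells of both groups, but the gate itself uses them. Immature neutrophil-like cells carried *Camp*, the cathelicidin of secondary granules, at 49923 and 41623 CPM, border macrophage-like cells *C1qa*, a subunit of complement C1q, at 5743 and 5971 CPM, and mast cell-like cells *Mcpt4*, a mast cell chymase, at 50645 and 53592 CPM.

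Marrow-type cells, the sum of B precursor-, granulocyte precursor- and immature neutrophil-like cells, were fewer at D3. They were 758 of 3569 cells at S3, or 21.2% (95% exact binomial interval 19.9 to 22.6), and 273 of 2668 at D3, or 10.2% (9.11 to 11.4). The share was 2.08-fold lower at D3, a log2 ratio of -1.05 (95% exact interval of a ratio of counts -1.26 to -0.85), and with thinned cells it was 19.4% and 9.86%. The plot of class shares gives the classes with their intervals.

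**Figure D1:**
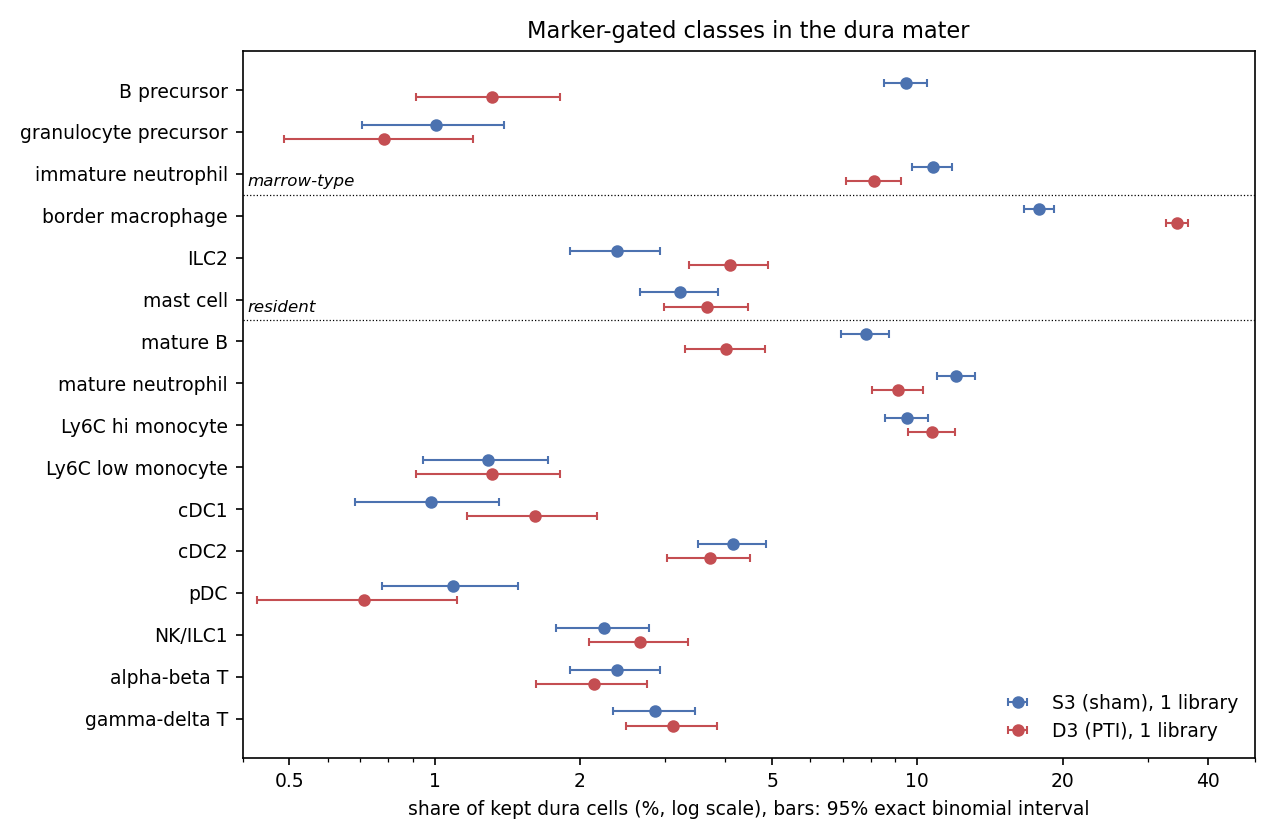
Share of the larger marker-gated classes among kept cells of the dura mater in percent, on a log scale, at S3 (blue, 3569 cells) and D3 (red, 2668 cells), 1 library each. Points are shares and bars are 95% exact binomial intervals for counting error; the B precursor share was 9.47% and 1.31%, and the border macrophage share 17.9% and 34.5%.

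Most of this difference lay in the B precursor-like cells. They were 338 cells or 9.47% (8.53 to 10.5) at S3 and 35 cells or 1.31% (0.915 to 1.82) at D3, which is 7.22-fold lower, with a log2 ratio of -2.85 (-3.40 to -2.35). With thinned cells the shares were 7.69% and 1.01%. Immature neutrophil-like cells were 384 cells or 10.8% (9.76 to 11.8) at S3 and 217 cells or 8.13% (7.12 to 9.24) at D3, a log2 ratio of -0.40 (-0.65 to -0.16). The granulocyte precursor-like cells were few, with 36 cells (1.01%) and 21 cells (0.787%), and the interval of their log2 ratio of -0.36 ran from -1.21 to 0.46, so no difference was detectable at this depth. A further 45 cells at S3 and 9 at D3 scored best on the B precursor list without passing the gate.

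Genes that the gates do not use were set beside the shares, in CPM of the whole library, and these genes were picked after the files were seen. *Ebf1*, a transcription factor that sets the B lineage, was at 341 CPM at S3 and 56.7 at D3, with a log2 ratio of -2.59. *Pax5*, which keeps cells in that lineage, was at 56.2 and 12.2 CPM (-2.21). Genes of the B lineage were thus lower in the whole library as well. *Lcn2*, a secondary granule protein of neutrophils, had a log2 ratio of 0.09 and *Ly6g*, a neutrophil surface protein, one of 0.05. *Prok2*, a chemokine-like peptide of neutrophils, was at 2.79 and 14.7 CPM, with a log2 ratio of 2.40, and *Fcnb*, a ficolin of immature neutrophils, had one of -0.54. Of the markers of other marrow cells, the 6 genes of the stem/progenitor list were at 47.2 CPM in sum at S3 and 30.4 at D3, and the 6 of the erythroid list at 14.99 and 13.7 CPM. Stem/progenitor-like cells were 20 and 6, and 6 cells were erythroid-like in each group. The part of attached skull marrow in these shares was not tested.

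The ratio of a precursor to the mature cells of its own lineage does not depend on the other classes. For 279 and 107 mature B-like cells there were 1.21 B precursor-like cells per mature B-like cell at S3 and 0.327 at D3, a log2 ratio of -1.89 (-2.53 to -1.27). The precursors were thus 54.8% of this lineage at S3 (50.8 to 58.8) and 24.6% at D3 (17.8 to 32.6). In the neutrophil lineage the composition did not show such a difference. Immature cells were 47.2% of immature and mature neutrophil-like cells at S3 (43.7 to 50.7) and 47.2% at D3 (42.5 to 51.9), with an interval of the log2 ratio from -0.34 to 0.34. Granulocyte precursor-like cells were 7.73% and 7.95% of precursor and mature cells (log2 ratio 0.05, -0.84 to 0.90).

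**Figure D2:**
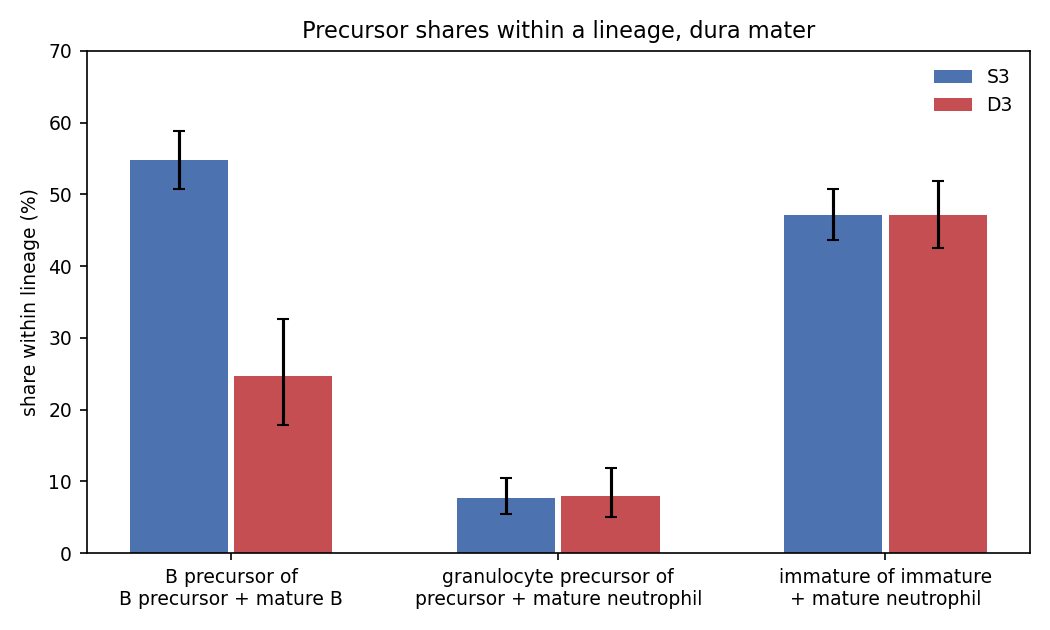
Share of precursor or immature cells within a lineage in percent, at S3 (blue) and D3 (red) in the dura mater, 1 library each, with 95% exact binomial intervals for counting error as bars. The B precursor share of its lineage was 54.8% and 24.6%, and the immature share of neutrophils was 47.2% in both.

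Mature cells of the same lineages were also a smaller share at D3. Mature B-like cells, marked by *Ms4a1* (CD20), were 7.82% of cells at S3 and 4.01% at D3, with a log2 ratio of -0.96 (-1.30 to -0.64). Mature neutrophil-like cells, marked by the chemokine receptor *Cxcr2*, were 12.05% (430 cells) and 9.11% (243 cells), a log2 ratio of -0.40 (-0.64 to -0.17).

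Resident cells, the sum of border macrophage-, mast cell- and ILC2-like cells, were a larger share at D3. They were 838 cells or 23.5% (22.1 to 24.9) at S3 and 1128 cells or 42.3% (40.4 to 44.2) at D3, a log2 ratio of 0.85 (0.72 to 0.98), and 22.7% and 40.96% with thinned cells. Border macrophage-like cells made up most of this, with 638 cells or 17.9% (16.6 to 19.2) and 921 cells or 34.5% (32.7 to 36.4), which is 1.93-fold higher at D3 with a log2 ratio of 0.95 (0.80 to 1.10). ILC2-like cells, lymphocytes that make type 2 cytokines, were 85 cells or 2.38% (1.91 to 2.94) and 109 cells or 4.09% (3.37 to 4.91), which is 1.72-fold higher (log2 ratio 0.78, 0.36 to 1.21). Mast cell-like cells were 115 (3.22%) and 98 (3.67%), and the interval of their log2 ratio of 0.19 ran from -0.21 to 0.59.

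Genes of border macrophages that the gate does not use were also higher in the whole library at D3. *Lyve1*, the hyaluronan receptor that marks a subset of these cells, was at 43.4 CPM at S3 and 97.6 at D3 (log2 ratio 1.17), *Folr2*, a folate receptor, had a log2 ratio of 1.11 and *Cd163*, the hemoglobin scavenger receptor, one of 1.03. *Csf1r*, the receptor on which macrophages depend, had one of 0.64. Within the border macrophage-like cells, thinned to 2000 UMIs, a *Lyve1* UMI was found in 122 of 636 cells at S3, or 19.2% (16.2 to 22.5), and in 235 of 921 at D3, or 25.5% (22.7 to 28.5). Without thinning the shares were 38.2% and 45.4%, and in thinned B- and T-like cells, which should lack the gene, they were 0 of 364 cells and 0.610% of 164. The intervals did not overlap, but they cover counting error alone.

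Cytokines among the markers of the ILC2 gate were higher in its cells at D3. *Il13*, a type 2 cytokine, was at 173 CPM in ILC2-like cells at S3 and 647 at D3, and *Il5*, the growth factor of eosinophils, was at 13.2 and 167 CPM. *Gata3*, the transcription factor of this lineage, was at 1327 and 1415 CPM. The 3 genes are markers of the gate, so these levels are a description of the gated cells. The share of ILC2-like cells depends in part on the same genes, so the 2 are not separate results. No cell passed the eosinophil gate, with 0 of 3569 cells at S3 and 0 of 2668 at D3. The limit of 3 counts allows a share of up to 0.0841% and 0.112%, and the exact upper limits were 0.103% and 0.138%. The study names eosinophils among the CD45+ cells of dura mater and brain, so the 0 describes this gate only.

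Of the other classes, Ly6C hi monocyte-like cells, the classical blood monocytes, were 9.50% at S3 and 10.7% at D3 (log2 ratio 0.17, -0.06 to 0.41). Their marker *Vcan*, a matrix proteoglycan, was at 82.6 CPM in these cells at S3 and 339 at D3, and *Ly6c2*, which names the class, at 1929 and 1338 CPM. Type 1 conventional dendritic cell (cDC1)-like cells were 35 (0.981%) and 43 (1.61%), with a log2 ratio of 0.72 whose interval of 0.04 to 1.40 came close to 0. For 7 further classes with at least 20 cells at S3 the interval of the log2 ratio held 0. These were Ly6C low monocyte- (0.03), type 2 conventional dendritic cell (cDC2)- (-0.16), plasmacytoid dendritic cell- (-0.62), NK/ILC1- (0.25), alpha-beta T- (-0.16), gamma-delta T- (0.12) and stem/progenitor-like cells (-1.32).

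Shares of 1 library sum to 100%, so a larger share of one class lowers the others, and fewer cells of one class cannot be told apart from more cells of the rest. After border macrophage-like cells were left out, a choice made after seeing the data, 2931 and 1747 cells remained. B precursor-like cells were then 11.5% and 2.003% (log2 ratio -2.53) and the marrow-type share had a log2 ratio of -0.73. Immature neutrophil-like cells were 13.1% and 12.4% of these cells (-0.077, -0.32 to 0.17) and mature neutrophil-like cells had the same log2 ratio of -0.077, so the lower neutrophil shares were seen only with the macrophages counted. Ly6C hi monocyte-like cells were 11.6% and 16.4% (0.50, 0.27 to 0.73), ILC2-like cells had a log2 ratio of 1.11 (0.68 to 1.53), mast cell-like cells one of 0.52 (0.11 to 0.92), and mature B-like cells one of -0.64. After the marrow-type cells were left out instead, border macrophage-like cells were 22.7% of 2811 cells and 38.5% of 2395 (0.76), ILC2-like cells had a log2 ratio of 0.59, and mast cell-like cells one of 0.00.

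The brain libraries of the same groups were gated in the same way, and the difference between the tissues was not tested, since each tissue has 1 library a group. B precursor-like cells were 2 of 3748 brain cells at S3 and 1 of 4601 at D3. The marrow-type share of the brain was 2.40% at S3 and 3.28% at D3, with a log2 ratio of 0.45 (0.06 to 0.84), opposite in sign to the dura mater. Immature neutrophil-like cells were 87 of the 90 marrow-type brain cells at S3 and 134 of the 151 at D3. Their own log2 ratio had an interval of -0.07 to 0.73. Granulocyte precursor-like cells were 1 and 16 of the brain cells, with a log2 ratio of 3.70 (1.02 to 9.09). The sums of the 2 tissues also differ in make-up, since 338 of the 758 marrow-type cells of the dura mater at S3 were B precursor-like. Border macrophage-like cells were 12.8% and 24.6% (0.94), so their log2 ratio was close to the 0.95 of the dura mater, with an interval of 0.78 to 1.09. ILC2-like cells of the brain were 1.65% and 0.348% (-2.25, -3.14 to -1.44), against a larger share at D3 in the dura mater. Mature B-like cells were lower in both tissues, with a log2 ratio of -3.22 in the brain. The brain shares of alpha-beta T- (-2.56), gamma-delta T- (-2.01) and NK/ILC1-like cells (-1.43) were lower at D3 as well. Immature per mature neutrophil-like cells were 0.223 and 0.398 in the brain (log2 ratio 0.84, 0.38 to 1.30), against 0.893 in both groups of the dura mater.

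**Figure D3:**
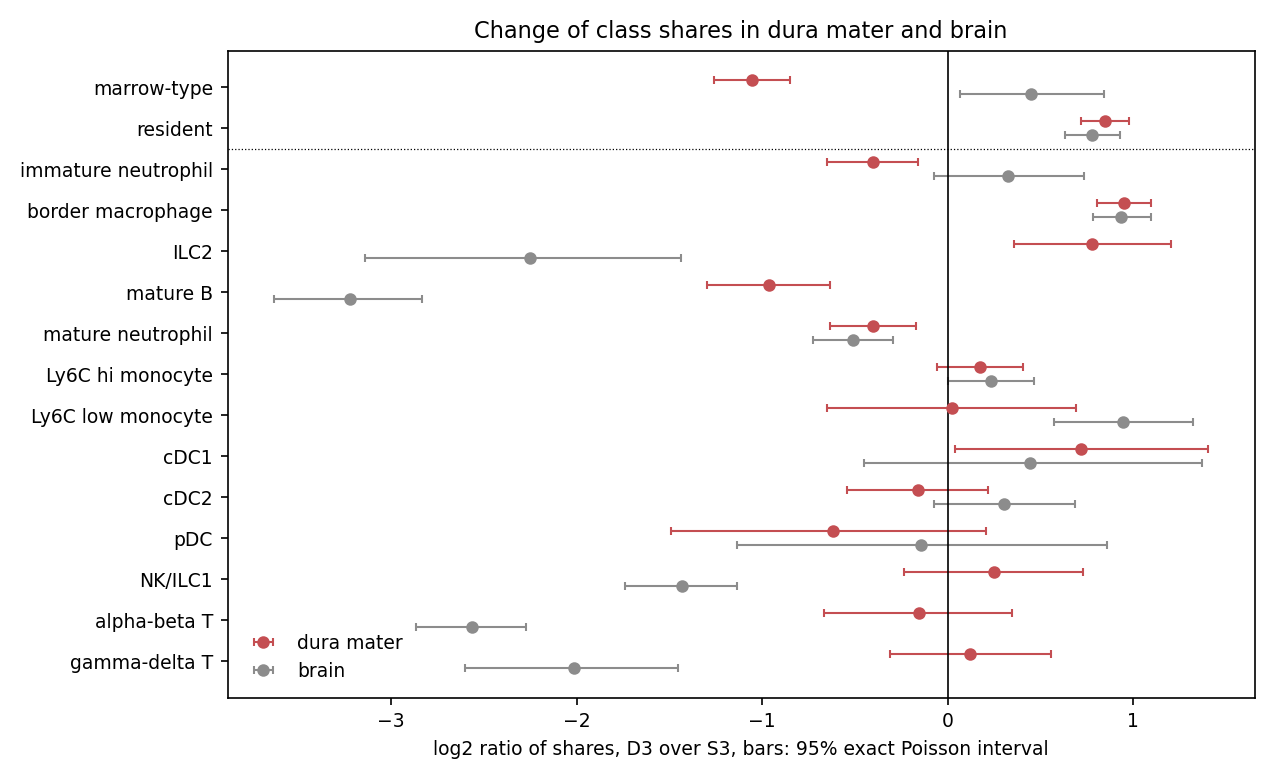
Log2 ratio of the share of a class, D3 over S3, in the dura mater (red) and the brain (grey), 1 library a group in each tissue. Bars are 95% exact intervals of a ratio of counts. Classes with few cells in any library are not drawn. B precursor-, granulocyte precursor- and mast cell-like cells are thus absent singly but count in the marrow-type and resident sums. Marrow-type cells were at -1.05 in the dura mater and 0.45 in the brain, ILC2-like cells at 0.78 and -2.25, and border macrophage-like cells at 0.95 and 0.94.

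Cells with RNA of 15 cell cycle genes were counted in each class as those with 3 or more UMIs of these genes after thinning to 2000 UMIs. Over all cells the share was 12.6% at S3 and 8.29% at D3, while without thinning it was 22.4% and 22.8%. Within the classes of the marrow type the shares were 33.4% (28.4 to 38.7) and 28.6% (14.6 to 46.3) in B precursor-like cells, 52.8% and 66.7% in granulocyte precursor-like cells, and 28.1% and 28.1% in immature neutrophil-like cells. No class of the marrow type thus differed between the groups beyond the intervals. In Ly6C hi monocyte-like cells the shares were 22.7% (18.4 to 27.5) and 17.5% (13.3 to 22.4) and in border macrophage-like cells 2.83% (1.69 to 4.44) and 4.78% (3.49 to 6.36). Mature neutrophil-like cells, which no longer divide, had no such cell among 430 and 242.

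Genes were then compared class by class. A gene counted as measured in a class if both libraries together had at least 50 UMIs of it there, and as past the fold if its CPM differed at least 1.5-fold, over 11 classes with at least 40 cells in each library. A gene was called if it was measured in at least 5 classes, past the fold in 1 direction in at least 2 in 3 of them and past it in the other direction in none. Ratios of CPM by class were taken after 0.5 UMIs had been added to both counts. B precursor-like cells were too few at D3 to enter, and granulocyte precursor-like cells were too few in both groups. Of 6379 genes measured in at least 5 classes, 10 (0.157%) were called higher and 16 (0.251%) called lower at D3. Genes that differed in the same direction in most classes were thus few.

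Within single classes more genes were past the fold, and these shares are the background for the counts by class below. Upward and downward they were 3.58% and 9.91% in immature neutrophil-, 7.0% and 10.5% in mature neutrophil-, 3.59% and 6.31% in Ly6C hi monocyte-, 2.35% and 5.07% in border macrophage- and 5.58% and 5.65% in cDC2-like cells. In lymphoid classes they were 3.59% and 6.16% in mature B-, 4.0% and 4.67% in NK/ILC1-, 6.08% and 5.58% in alpha-beta T-, 3.8% and 4.28% in gamma-delta T- and 6.98% and 4.22% in ILC2-like cells, and in mast cell-like cells 3.57% and 5.99%. More genes were past the fold downward than upward in 9 of the 11 classes.

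The genes called were mostly those measured in few classes. Of the genes called, 9 of the 10 higher and 12 of the 16 lower were measured in only 5 or 6 classes, which were for the most part the neutrophil, monocyte, macrophage and cDC2 classes. Among the 3289 genes measured in 9 or more classes, 1 was called, *Ifitm2*. None of the 2351 genes measured in every class was called.

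**Figure D4:**
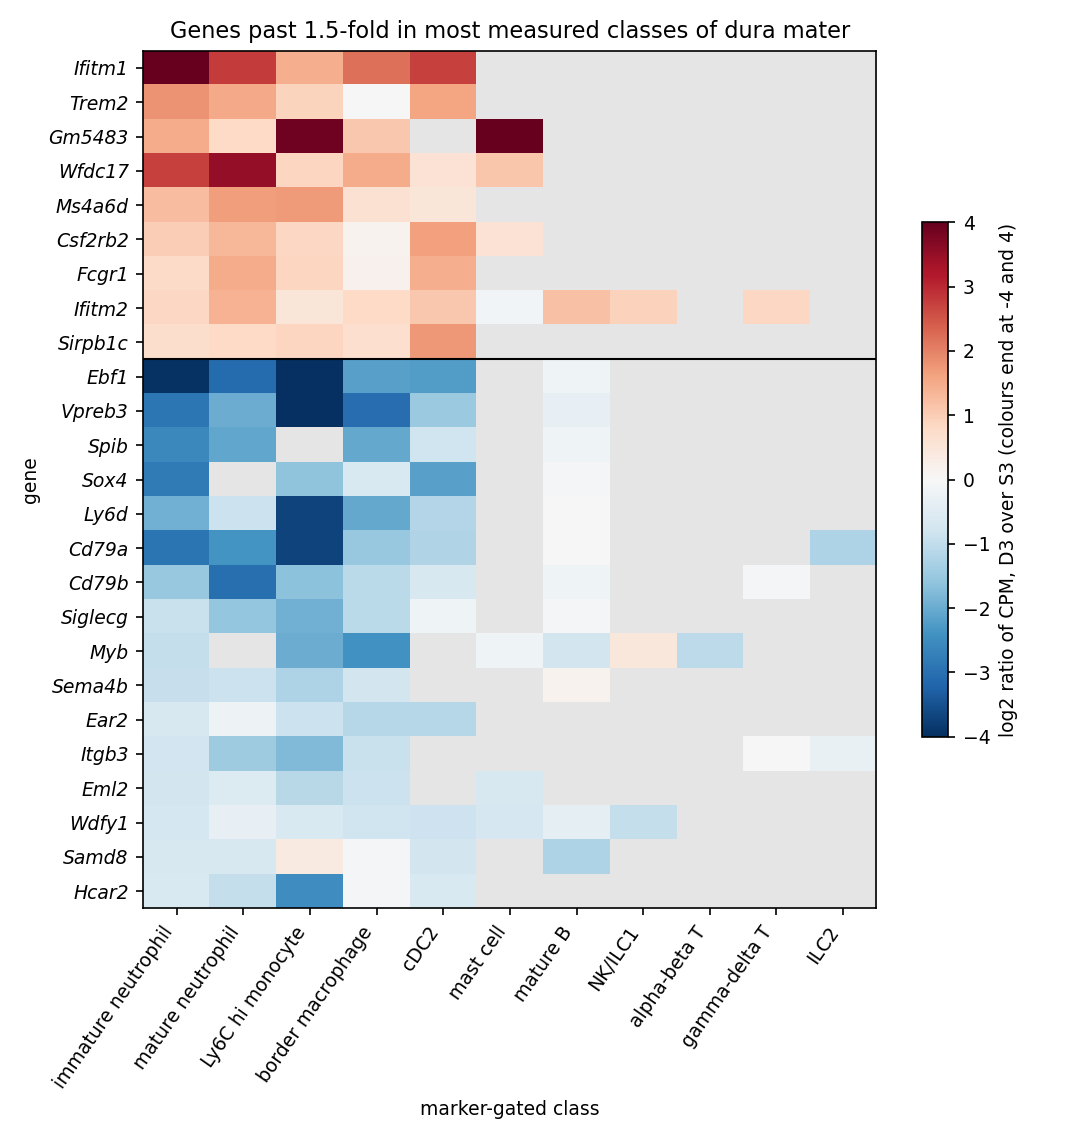
Log2 ratio of CPM, D3 over S3, for 9 of the 10 genes called higher (above the line) and the 16 called lower (below it) in each of 11 marker-gated classes of the dura mater, with grey where a gene was not measured; colours end at -4 and 4. The genes called higher were measured mainly in myeloid classes, and *Ebf1*, *Vpreb3* and *Cd79a*, called lower, differed by less than 1.5-fold in mature B-like cells.

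Among the genes called higher, *Ifitm1* and *Ifitm2* encode membrane proteins that are induced by interferon and hinder the entry of viruses. *Ifitm1* was higher in all 5 classes in which it was measured, with a median log2 ratio of 2.74. It was at 262 CPM at S3 and 1812 at D3 in mature neutrophil-like cells (log2 ratio 2.79, 2.67 to 2.91) and at 61.3 and 412 CPM in cDC2-like cells (2.74). It was at 14.4 and 66.8 CPM in border macrophage-like cells (2.21) and at 27.8 and 75.6 CPM in Ly6C hi monocyte-like cells (1.44). In immature neutrophil-like cells it was at 6.13 and 126 CPM (4.34), where 1 cell held 256 of the 713 UMIs at D3. *Ifitm1* was thus most abundant in mature neutrophil-like cells in both groups. Mast cell-like cells went the other way, at 44.0 and 6.34 CPM, but with 42 and 7 UMIs they were just under the minimum and did not enter the call.

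*Ifitm2* was past the fold in 7 of 9 classes, with a median log2 ratio of 0.84. It was at 917 and 2384 CPM in mature neutrophil-like cells (1.38, 1.31 to 1.45), at 782 and 1638 CPM in cDC2-like cells (1.07) and at 635 and 1102 CPM in border macrophage-like cells (0.80). The levels of *Ifitm2* in lymphoid classes were low, at 17.5 and 39.2 CPM in mature B-like cells (1.17, 0.35 to 1.96), 29.0 and 54.8 CPM in NK/ILC1-like cells (0.91, 0.09 to 1.78) and 32.9 and 59.4 CPM in gamma-delta T-like cells (0.84, 0.04 to 1.68). Both exceptions were Ly6C hi monocyte-like cells, at 1326 and 1849 CPM (0.48), and mast cell-like cells, at 393 and 362 CPM (-0.12).

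Both genes lie on chromosome 7 of GRCm38, *Ifitm1* (ENSMUSG00000025491) on the plus strand from 140967221 to 140969825 and *Ifitm2* (ENSMUSG00000060591) on the minus strand from 140954837 to 140955987, in the GENCODE annotation. Their promoters are printed because these neighbours were the only pair of 1 family among the genes called higher. Each is the RefSeq sequence of GRCm38.p6 from 250 bases before to 50 bases after a transcript start, at chr7:140967826-140968125 on the plus strand for *Ifitm1* and chr7:140955912-140956211 on the minus strand for *Ifitm2*, read 5′ to 3′ along the strand of the gene. Capitals mark a match to the interferon-stimulated response element, searched on both strands.
Ifitm1: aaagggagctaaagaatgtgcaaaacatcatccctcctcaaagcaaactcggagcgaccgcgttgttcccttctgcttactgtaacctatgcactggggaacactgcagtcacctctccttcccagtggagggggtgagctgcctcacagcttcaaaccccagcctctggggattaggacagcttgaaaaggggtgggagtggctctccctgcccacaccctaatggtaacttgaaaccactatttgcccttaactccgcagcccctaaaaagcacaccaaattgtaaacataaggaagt
Ifitm2: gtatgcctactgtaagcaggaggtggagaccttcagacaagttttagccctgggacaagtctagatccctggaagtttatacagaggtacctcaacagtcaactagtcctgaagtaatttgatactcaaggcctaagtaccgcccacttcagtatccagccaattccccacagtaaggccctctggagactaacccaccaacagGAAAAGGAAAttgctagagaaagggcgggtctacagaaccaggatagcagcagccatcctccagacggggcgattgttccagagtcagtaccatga
The *Ifitm2* window held a match and the *Ifitm1* window held none of the letters searched. The *Ifitm1* window lies inside the gene as annotated, so the bases before its start at 140967221 were not searched for the element. The element was in 3.44% of 32851 promoters, and of the genes called, 7 of the 10 higher and 11 of the 16 lower had a promoter in the table. Among these the interferon element was found for *Ifitm2* and *Ebf1*, the heat shock element GAANNTTC (7.86% of promoters) for *Fcgr1* and *Samd8*, and the E-box CACGTG (7.15%) for *Sema4b*. The AP-1 site TGAGTCA (5.202%), the CRE TGACGTCA (1.79%), the D-box TTATGTAA (0.938%) and the glucocorticoid element ACANNNTGT (6.85%) matched in no promoter of a called gene.

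*Wfdc17*, which encodes a small secreted protein of the whey acidic protein family made by activated myeloid cells, was past the fold in 5 of 6 classes (median 1.30). It was at 169 CPM at S3 and 1926 at D3 in mature neutrophil-like cells (log2 ratio 3.51, 3.37 to 3.66), at 21.0 and 140.4 CPM in immature neutrophil-like cells (2.74) and at 409 and 1150 CPM in border macrophage-like cells (1.49). In Ly6C hi monocyte-like cells it was at 515 and 939 CPM (0.87) and in cDC2-like cells, at 735 and 1089 CPM (0.57), just under the fold. The largest ratio of *Wfdc17* was thus in the mature neutrophil-like cells, where its level at S3 was below that of the monocytes. *Gm5483*, a gene of the stefin A family of cysteine protease inhibitors on chromosome 16, was past the fold in 5 of 5 classes (1.47) and was mainly a transcript of mature neutrophil-like cells, at 930 and 1619 CPM (0.80). Its call in mast cell-like cells rested on 51 UMIs of 1 cell at D3 and in Ly6C hi monocyte-like cells on 3 UMIs at S3 and 50 at D3, of which 1 cell held 39. *Gm5483* has close copies in its cluster, so its counts are uncertain where reads match several of them.

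*Trem2*, a lipid receptor of macrophages, was past the fold in 4 of 5 classes (1.505), at 65.7 and 121 CPM in Ly6C hi monocyte-like cells (0.89), but was at 305 and 307 CPM in border macrophage-like cells (0.01, -0.06 to 0.08), the class with its highest level. *Fcgr1*, the high-affinity receptor for IgG (median 0.86), was at 77.3 and 141 CPM in Ly6C hi monocyte-like cells and at 325 and 363 CPM in border macrophage-like cells (0.16). Both genes thus differed in the classes where they were low more than where they were high. *Ms4a6d*, a membrane protein of macrophages (1.25), was at 101 and 329 CPM in Ly6C hi monocyte-like cells (1.71) and at 275 and 415 CPM in border macrophage-like cells (0.59). *Csf2rb2*, the interleukin-3 receptor beta subunit of mice (0.90), was at most at 73.3 CPM in the classes measured. *Sirpb1c*, a signal regulatory protein (0.81), was past the fold in 5 of 5 classes, at 139 and 251 CPM in Ly6C hi monocyte-like cells (0.86), and has close copies as well.

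*Trem2* and *Fcgr1* are genes of border macrophage-like cells, whose share was 1.93-fold higher at D3. After cells that scored 0.25 or more on the markers of another lineage were left out (15.8% of gated cells at S3 and 19.4% at D3), *Ifitm1*, *Wfdc17*, *Csf2rb2* and *Ifitm2* were still called. The other 6 genes called higher were then measured in too few classes for a call, so the part of mixed droplets in them was not tested. At a cut of 0.15, which left out 40.1% and 45.0% of gated cells, no gene was called higher. The genes called higher were then measured in too few classes to be tested. The part of free RNA in the genes called higher, *Ifitm1* among them, was not tested. In the brain, where 83 of 7276 genes (1.14%) were called higher by the same rule, *Ifitm1* (median log2 ratio 2.34), *Ms4a6d* (1.499), *Trem2* (1.40) and *Csf2rb2* (1.34) were called as well. *Fcgr1* (1.20), *Wfdc17* (0.79), *Ifitm2* (0.62) and *Sirpb1c* (0.52) were not called there. *Gm5483* went the other way in the brain (-1.49), with 2 of 3 measured classes past the fold downward, too few classes for a call.

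The genes called lower included *Ebf1* (median log2 ratio -2.67), *Vpreb3* (-2.45), the transcription factor *Spib* (-2.04), the progenitor factor *Sox4* (-1.61), the early lymphoid surface protein *Ly6d* (-1.55), the antigen receptor subunits *Cd79a* (-1.51) and *Cd79b* (-1.07), the inhibitory lectin *Siglecg* (-0.98) and the progenitor factor *Myb* (-0.94). In mature B-like cells, where they are expressed, *Cd79a* was at 4330 CPM at S3 and 4315 at D3 (-0.00, -0.07 to 0.06), *Ebf1* at 1641 and 1471 CPM (-0.16), and *Vpreb3* at 1021 and 820 CPM (-0.32). In B precursor-like cells, *Ebf1* was at 3034 and 2684 CPM and *Vpreb3* at 3031 and 2840 CPM. The levels of these 3 genes within the B cell classes thus differed by less than 1.5-fold between the groups.

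The same genes were lower in the classes that do not make them. *Cd79a* had 269 UMIs at S3 and 46 at D3 in mature neutrophil-like cells (-2.39). It was at 39.1 and 5.11 CPM in immature neutrophil-like cells (-2.91), 12.5 and 0.879 CPM in Ly6C hi monocyte-like cells (-3.70) and 59.3 and 20.9 CPM in border macrophage-like cells (-1.51). *Vpreb3* was at 24.5 and 2.94 CPM in border macrophage-like cells (-3.05) and *Ebf1* at 33.7 and 7.39 CPM (-2.18). The share of B precursor-like cells in the library was 7.22-fold lower at D3, as given above. In the classes outside the B lineage, cells with 5 or more UMIs held 76.4% of the *Vpreb3* UMIs, 85.5% of those of *Cd79a* and 88.0% of those of *Ebf1* at S3, in 33, 57 and 51 cells. At D3 there were 7, 20 and 15 such cells. After cells that scored 0.25 or more on the markers of another lineage were left out, *Vpreb3*, *Ebf1*, *Ly6d*, *Cd79a* and *Siglecg* were still called and *Cd79b* was not. The part of free RNA was not tested. *Ebf1*, *Ly6d*, *Cd79a* and *Cd79b* were also called lower in the brain, where 1.13% of genes were.

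**Figure D5:**
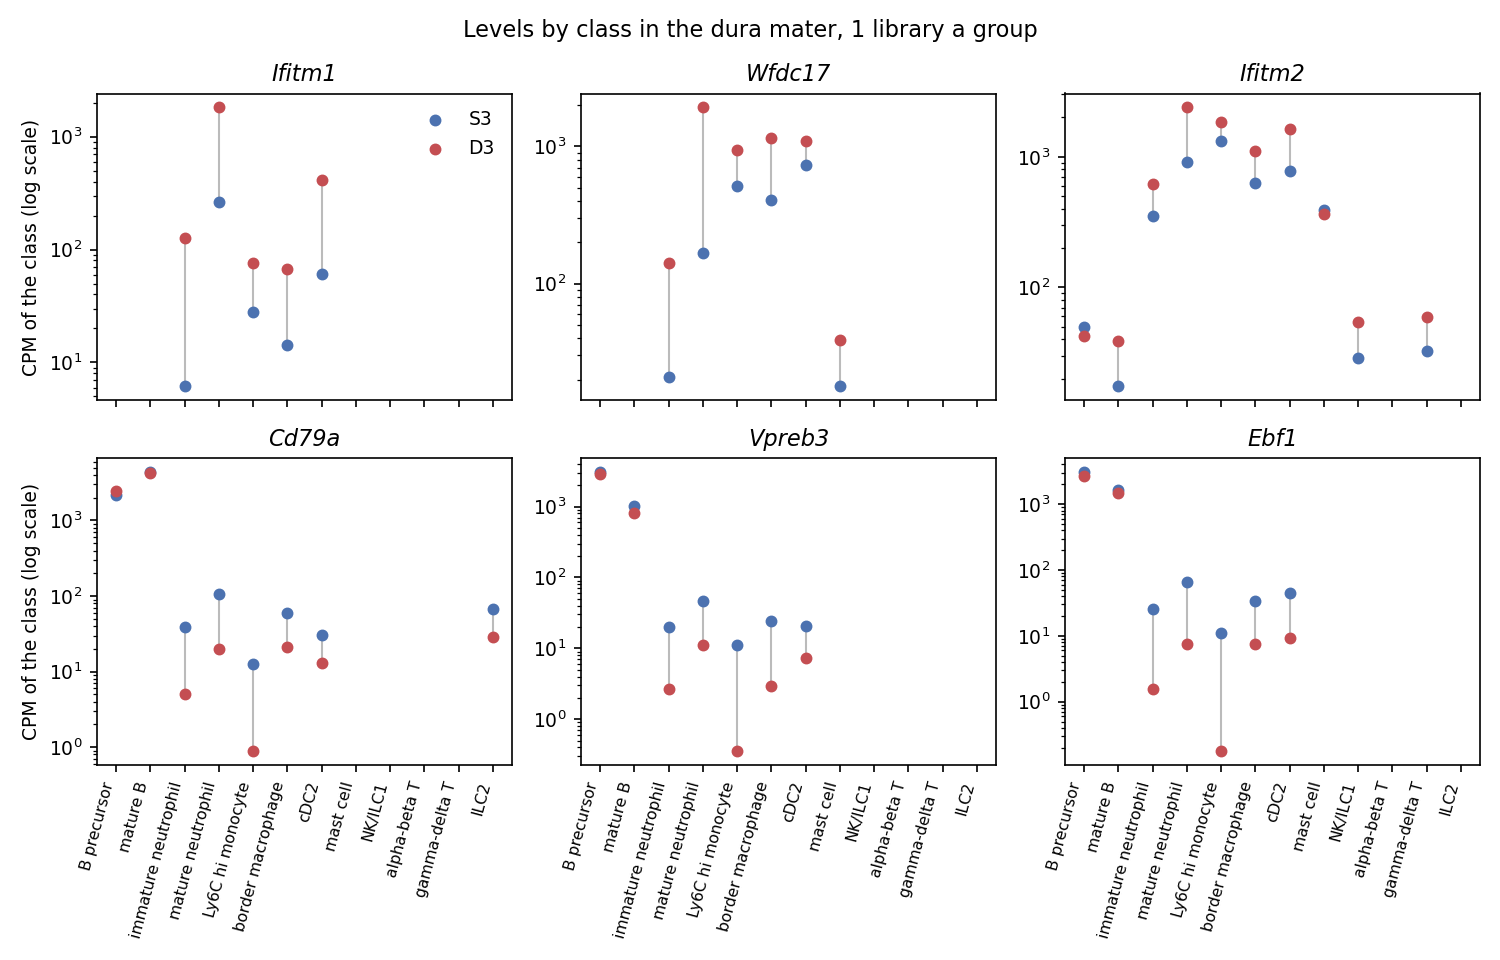
Level in CPM of the class on a log scale, at S3 (blue) and D3 (red), for 3 genes called higher (top) and 3 called lower (bottom) in 12 classes of the dura mater, 1 library each; a class is left blank where the gene was not measured, and B precursor-like cells, which did not enter the calls, are shown where they had UMIs enough. *Ifitm1* and *Wfdc17* were higher at D3 in each class shown, and *Cd79a* was within 1.5-fold in both B cell classes and lower elsewhere.

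The other genes called lower had smaller ratios, and several calls among the 16 held in few other settings. *Sox4* kept its call in 1 of 8 settings in which it could be tested, *Samd8* in 2 of 11, *Hcar2* in 4 of 10, *Ear2* in 4 of 9 and *Cd79b* in 5 of 13. *Ear2*, a ribonuclease of the eosinophil-associated family (median -0.86), was at 238 CPM at S3 and 108 at D3 in cDC2-like cells (-1.13) and has close copies. *Itgb3*, integrin beta 3 (-0.83), was at 21.2 and 7.83 CPM in mature neutrophil-like cells. *Sema4b*, a semaphorin (-0.86), *Eml2*, a microtubule-associated protein (-0.74), *Wdfy1*, a protein of early endosomes (-0.68), and *Samd8*, an enzyme of sphingolipid synthesis (-0.65), were below 100 CPM in each class measured. *Wdfy1* was measured in the most classes of these, 8, and was past the fold in 6. *Hcar2*, the niacin receptor, is named after its values were seen, as the gene called lower with the smallest ratio (-0.61), and was at 593 and 308 CPM in mature neutrophil-like cells (-0.94).

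Lists of genes for other programmes were summarised by the median log2 ratio in each class, beside a median over all genes measured between -0.18 in immature neutrophil-like cells and 0.02. Of all 21 lists, the acute phase and alarmin list held genes called in most classes, *Ifitm1* and *Wfdc17*, 2 of its 7 genes tested, with a median over the class medians of 0.17. The others held none. The values below name genes after they were seen. In Ly6C hi monocyte-like cells 6 of 9 measured genes of this list were past the fold upward, against 3.59% of all genes. Among them was *S100a8*, a calprotectin subunit, at 658 and 1371 CPM (1.06). The 6 include the called genes *Ifitm1* and *Wfdc17*, and the list was chosen with earlier results of these data known. In NK/ILC1-like cells the list went the other way, with 3 of 3 measured genes past the fold downward (median -1.67), *S100a8* among them at 642 and 202 CPM. In the whole library *S100a8* was at 27827 and 30306 CPM. The part of mixed droplets and free RNA in the values of this list was not tested. *Lrg1*, a secreted leucine-rich glycoprotein, was past the fold in 4 of 4 classes, 1 too few to be called, at 231 and 1172 CPM in mature neutrophil-like cells (2.34) and at 2.57 and 67.0 CPM in Ly6C hi monocyte-like cells (4.66).

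For chemokines the list had a median of 0.11 over the class medians. *Ccl2*, which draws monocytes through CCR2, was past the fold upward in 7 of 10 classes and downward in Ly6C hi monocyte-like cells, at 161 and 104 CPM (-0.63), so it was not called. It was at 3050 CPM at S3 and 6366 at D3 in mast cell-like cells (1.06) and at 1353 and 1962 CPM in border macrophage-like cells (0.54). *Ccl7*, a ligand of the same receptor, was at 1653 and 4421 CPM in mast cell-like cells (1.42) and at 986 and 1514 CPM in border macrophage-like cells (0.62). *Ccl8*, another monocyte chemokine, was at 964 and 2279 CPM in border macrophage-like cells (1.24) and past the fold in 5 of 8 classes. Mast cell- and border macrophage-like cells thus had the highest levels of *Ccl2* and *Ccl7* in both groups. In immature neutrophil-like cells 11 of 15 measured chemokines were past the fold upward, against 3.58% of all genes. Their levels were low, such as 19.5 and 152 CPM for *Ccl2*. On this list, *Ccl8*, *Ccl12* and *Pf4* were among the leading genes of border macrophage-like cells, whose share was 1.93-fold higher at D3. The part of mixed droplets in this count was not tested.

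The interferon-stimulated list had a median of -0.19 over the class medians and was below 0 in 7 of 11 classes, while *Ifitm1* and *Ifitm2* are not on it. In cDC2-like cells 8 of its 16 genes were past the fold downward, against 5.65% of all genes, and in Ly6C hi monocyte-like cells 7 of 16, against 6.31%. *Rsad2*, an antiviral enzyme, was at 53.5 and 17.4 CPM in Ly6C hi monocyte-like cells, and *Isg15*, a ubiquitin-like modifier, at 163 and 90.2 CPM in cDC2-like cells (-0.85). *Isg15* was at 190.5 and 189 CPM in mature neutrophil-like cells (-0.01), the class with the highest level of *Ifitm1*.

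The heat shock list had a median of -0.01, but 2 of its genes, the inducible chaperones *Hspa1a* and *Hspa1b*, were far lower in most classes. *Hspa1b* was past the fold downward in 9 of 11 classes (median -1.38), and upward in mature neutrophil-like cells, and *Hspa1a* was lower in 8 of 10 (-1.31). *Hspa1a* was at 963 CPM at S3 and 56.4 at D3 in Ly6C hi monocyte-like cells and at 428 and 11.3 CPM in NK/ILC1-like cells, but at 34.1 and 101 CPM in mature neutrophil-like cells. *Hspa1a* and *Hspa1b* are near-identical copies, so their counts can be split between them. Both are known to be induced by heat and other stress of cells, and the part of such stress in the other results was not tested. The immediate early genes of dissociation had a median of -0.14 and were below 0 in 9 of 11 classes.

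The medians of the remaining lists were -0.22 for clock genes, -0.20 for cycling genes, -0.19 for the unfolded protein response, -0.11 for glucocorticoid response, -0.06 for MHC class I, -0.03 for MHC class II, -0.03 for ribosomal proteins, 0.00 for glycolysis and hypoxia, 0.00 for heme and iron, 0.01 for NF-kB feedback, 0.01 for ribosomal RNA fragment genes and 0.05 for metallothionein and zinc. The clock list was below 0 in 9 of 9 classes, the glucocorticoid list in 10 of 11. *Per1* is on both lists, and only 4 of the 16 clock genes were measured in at least 5 classes. In Ly6C hi monocyte-like cells alone, the clock median of -0.02 was above that of all genes, -0.05. *Tsc22d3*, a glucocorticoid-induced leucine zipper gene, was below 0 in 10 of 11 classes (median -0.37), and *Per1*, a clock gene that glucocorticoids also induce, in 9 of 11 (-0.41). The lists kept as checks had medians of 0.05 for mitochondrial genes, -0.13 for genes of the sex chromosomes, -6.83 for globins, in mature B-like cells only, and -1.88 for immunoglobulins, below 0 in 6 of 6 classes. *Igkc*, the kappa light chain, was at 319 and 27.4 CPM in mature neutrophil-like cells and at 12672 and 10976 CPM in mature B-like cells, but at 26.5 and 187 CPM in alpha-beta T-like cells.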

How the data were processed

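CD45+ cells of dura mater and brain, 1 library each at S3 and D3, were analysed. The deposited matrices hold natural log values that the authors made from UMI counts with a fixed total per cell. Per the submitters' processing notes, Cell Ranger 3.1.0, Seurat 3.1.0 and build mm10 were used. The design had assumed counts. The values of a cell were therefore back-transformed and divided by their smallest value, taken as 1 UMI, which gave whole numbers for 100% of values within a tolerance of 1e-06, and these UMIs were used. Cells were kept by the gene and mitochondrial limits given above.

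Each marker was scaled to the mean of its top 20 cells and capped at 1. A cell took the best of 28 lists if its mean reached 0.25 and led the next by 0.05. Doublets were kept, since the automatic threshold of Scrublet marked between 0 and 3 barcodes per library and had thus not worked. Shares have Clopper-Pearson 95% intervals, and a count of 0 was given an upper limit of 3 counts. No test was possible with 1 library a group, and droplet UMIs give counting error only. Classes were thinned to 2000 UMIs per cell to compare shares at equal depth. Named genes were up to 15 in each direction by median log2 ratio among those called, members called of 21 lists, markers of gates, and sex chromosome, globin, immunoglobulin and mitochondrial genes as checks. Other genes were named after their values were seen. Of the genes called higher, 1 is not reported here. Members, lists and rules were chosen with earlier results of these data known.

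The gates, calls and intervals were tested on simulated data. Gene positions came from GENCODE (GRCm38) and promoters from RefSeq. Alternatives covered cell filters, doublets, clusters, thinning, mixed cells, fold and UMI minimums, scaling and denominators. Python 3.11.15, numpy 2.4.6, scipy 1.17.1, pandas 2.3.3, scanpy 1.11.5 and matplotlib 3.10.9 were used.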

Additional observations from a re-analysis of the deposited data

Results flagged for a closer look

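The log2 ratio of the ILC2-like share, D3 over S3, was 0.78 in the dura mater and -2.25 in the brain. This class was thus 1.72-fold higher in one tissue and 4.76-fold lower in the other. The lower brain share was not particular to ILC2-like cells. Other lymphoid classes of the brain had log2 ratios of -3.22 (mature B), -2.56 (alpha-beta T), -2.01 (gamma-delta T) and -1.43 (NK/ILC1). The log2 ratio of the marrow-type share was -1.05 in the dura mater and 0.45 in the brain, 2.08-fold lower and 1.37-fold higher. This sum differed mostly in B precursor-like cells in the dura mater, while in the brain it held mostly immature neutrophil-like cells. Granulocyte precursor-like cells of the brain were 1 at S3 and 16 at D3. For the ILC2-like and marrow-type shares the 2 tissues differed in direction, and this difference was not tested, since each tissue had 1 library a group.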

How the results depend on the processing

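No paired analysis was possible because each group had 1 library per tissue. The log2 ratio of the B precursor share ranged from -3.02 to -2.53 over the alternatives, that of marrow-type cells from -1.17 to -0.73, and that of ILC2-like cells from 0.63 to 1.11. Leaving out cells that scored 0.25 or more for another lineage, a choice made after seeing the data as was the stricter 0.15, gave 1.13 for border macrophage-, 1.07 for resident and -1.39 (-3.87 to 0.53) for mast cell-like cells, and 0.15 gave 1.52 for border macrophage-like and 1.37 for resident cells. Of cells other than border macrophage-like ones, also chosen after seeing the data, the log2 ratio was -0.64 for mature B, -0.077 for immature neutrophil, -0.077 for mature neutrophil, 0.50 for Ly6C hi monocyte and -0.73 for marrow-type cells. Calls of genes depended more on the settings than shares did. Against 10 higher and 16 lower, there were 10 lower without the highest Scrublet scores, 19 higher with classes by clusters, 2 higher and 3 lower with thinned cells, 6 higher at 0.25, 0 higher and 3 lower at 0.15, 3 higher and 5 lower at 2-fold, 35 higher and 41 lower at 20 UMIs, 4 lower at 200 UMIs, 3 higher and 0 lower if every measured class had to pass, 10 lower with centred ratios and 3 higher over lineages. No test stood behind these counts. Over the 26 genes and the settings in which each could be tested, 160 calls were kept and 100 lost, and none reversed. The globin median was -1.33 without the cell filter, -6.79 without the highest Scrublet scores, 0.37 by clusters, -6.85 at 0.25, -7.53 at 0.15 and -6.81 when centred, and the immunoglobulin median was -0.67 with thinned cells. The cause of these changes was not tested. Clusters gave no granulocyte precursor class, so that value was not available.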

Other observations

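Antigen presentation genes did not go in 1 direction across classes. In ILC2-like cells the MHC class II list had a median log2 ratio of -1.47. There 4 of 5 measured genes were past the fold downward, against 4.22% of all genes. In alpha-beta T-like cells the median was 1.56, with 4 of 4 genes past the fold upward, against 6.08%. In cDC2-, border macrophage- and mature B-like cells the medians were -0.13, -0.05 and 0.09. The part of mixed droplets in these values was not tested. Of the inflammatory genes of neutrophils, *Cxcl9*, a chemokine induced by interferon gamma, was at 1.57 CPM at S3 and 184 at D3 in mature neutrophil-like cells, but it was past the fold downward in the other 3 classes in which it was measured, among them border macrophage-like cells at 53.1 and 22.9 CPM. *Cxcl2*, which draws neutrophils, was at 2120 and 1241 CPM there and at 1371 and 2316 CPM in border macrophage-like cells. Arg1 Gpnmb macrophage-like cells were 2 and 0 of the dura mater cells, but 0 and 608 of the brain cells, or 13.2% of the latter at D3.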
